A study of Schizosaccharomyces pombe with 15 samples.

Results

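A small share of U6 reads in these fission yeast libraries did not stop after the run of Us that normally ends U6 but went on into a longer stretch of other sequence. Whether these joins were made in the cells or in the preparation of the libraries was not tested. These long-tailed ends were taken as all ends that start with T (DNA letters stand for RNA, T for U) and hold at least 15 nt after the leading T run. Ends with an N, ends that read through into the genomic sequence after the U6 gene, and tails that match the adapter or primers over 10 nt were removed. This left 55191 of the 111582 distinct ends of the 19 files, counted per file, with 266041 of 22706490 reads. They comprised 36673 different tails. Apart from the leading T and these removals, the rule used tail length and no other value. The removal of readthrough ends also used the T run, since it took only ends with at least 8 Ts (245 ends, 3299 reads).

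The ends were read by 3′ RACE, in which an adapter is ligated to the 3′ ends of total RNA and U6 is then amplified and sequenced. Each of the 15 libraries of Schizosaccharomyces pombe was the only one of its strain and treatment: wt and rrp6Δ, each with and without polynucleotide kinase (PNK, which removes 3′ phosphates and puts phosphates on 5′ ends), and, all with PNK, mpn1Δ, mpn1Δrrp6Δ, cid14Δ, cid14Δmpn1Δ, cid11Δ, cid12Δ, cid16Δ and the tagged strains tU6-wt, tU6-C36A, mpn1Δ tU6wt and mpn1Δ tU6-C36A. All were grown in YES medium at 30 °C. The 4 tagged strains carry a tagged U6, wild type or C36A, beside the endogenous one and gave 1 file for each form. The files held 408281 to 3966962 reads with an end sequence. Reads carry no molecular identifiers, so intervals cover counting error only. The untagged libraries differ in the share of reads with an N, from at most 0.000142% in 7 libraries to 0.0217% to 0.0244% in cid11Δ, cid12Δ, cid16Δ and the wt library read without PNK. The files of tagged strains lay between these, at 0.00249% to 0.00598%. These sets cross several comparisons below.

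U6 is the spliceosomal RNA made by RNA polymerase III, and its transcripts end in Us where the polymerase stops at a run of Ts. Mpn1, the homolog of human USB1, trims the 3′ end of U6, and Rrp6 degrades RNA from the 3′ end as part of the nuclear exosome. Cid14 is the poly(A) polymerase of the TRAMP complex, Cid12 is a subunit of the RNA-directed RNA polymerase complex of RNA interference, and Cid11 and Cid16 are related nucleotidyltransferases. Ribosomal RNAs and tRNAs make up most of the RNA of a cell.

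Most tails that could be placed came from ribosomal RNA and tRNA. The sequences that carry the results are printed here 5′ to 3′, starting at the first T after the constant part of U6, with the stretch that matches the ASM294v3 reference (RefSeq) in capitals and all other bases in lower case. The first line shows the end of the snu6 gene, on the minus strand at chrI:2562254-2562295, with the encoded run of 9 Ts in capitals. The others are a tail from the 3′ end of 5S rRNA (chrII:464621-464645, plus strand), a tail from the 3′ end of 5.8S rRNA (chrIII:9842-9859, minus), a tail from its 5′ part (chrIII:9967-9999, minus), tails from 18S rRNA that stop at the same base (from chrIII:11869, minus), of which the last has an A that the reference does not hold, and a tail from 28S rRNA (chrIII:7200-7217, minus).
snu6 end: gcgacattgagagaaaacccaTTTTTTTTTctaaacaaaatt
5S, bases 95 to 119: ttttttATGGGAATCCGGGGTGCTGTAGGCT
5.8S, from base 148: tttttGCCTGTTTGAGTGTCATT
5.8S, from base 8: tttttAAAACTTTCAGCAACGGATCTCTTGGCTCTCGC
18S, from base 374: tttttGGGTTCGATTCCGGAGAGG
18S, from base 373: ttttttAGGGTTCGATTCCGGAGAGG
18S, from base 368 after an A: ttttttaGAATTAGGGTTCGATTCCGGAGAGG
28S, from base 2325: tttttCGGGTAAACGGCGGGAGT

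The next set shows tails from tRNAs and from the centromeric repeats, with 1 place given where several match (3 for cysteine, 6 for threonine). It holds a leucine tRNA that starts at its first annotated base (chrI:3591948-3591962, plus strand), the same tRNA from 1 base earlier, where the reference also holds an A (chrI:3591947-3591962), a cysteine tRNA (chrI:1421149-1421163, plus), an alanine tRNA (chrI:4796977-4797004, plus), an arginine tRNA from its base 71 (chrII:1160896-1160924, minus), a threonine tRNA that runs to its last base and on into CCA (chrIII:1093083-1093103, minus), the mitochondrial aspartate tRNA with an A before its first base (mitochondrion, 14239 to 14269, plus), and a centromeric repeat (chrI:3763693-3763713, plus, 1 of 10 equal locations).
tRNA-Leu: ttttttGGATGGGTGTCCGAG
tRNA-Leu after an A: ttttttAGGATGGGTGTCCGAG
tRNA-Cys: tttttGGGGTCATAGCTCAG
tRNA-Ala: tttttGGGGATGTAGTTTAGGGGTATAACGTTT
tRNA-Arg: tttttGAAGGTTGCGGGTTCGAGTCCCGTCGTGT
tRNA-Thr with CCA: tttttGTTCAAGTCACTGCTGGAGCAcca
mitochondrial tRNA-Asp: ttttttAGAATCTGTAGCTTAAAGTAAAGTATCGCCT
centromeric repeat: ttttttGTCTCTTGTGCTCAGGCTGGT

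By reads, long tails were rare in untagged strains and more frequent in tagged ones. In wt they made up 0.477% of reads (exact 95% interval 0.462 to 0.491), in rrp6Δ 0.544%, in mpn1Δ 0.502%, in mpn1Δrrp6Δ 0.653%, in cid14Δ 0.545% and in cid14Δmpn1Δ 0.455%. The share was 0.295% in cid11Δ, 0.347% in cid16Δ and 1.28% (1.27 to 1.29) in cid12Δ, the highest of the 11 untagged libraries. Of these cid12Δ reads, 61.8% had a tail with no place on the fission yeast reference, the highest of all files, against 22.5% in wt. Endogenous U6 of the tagged strains had 3.66% in tU6-wt, 2.41% in tU6-C36A, 2.16% in mpn1Δ tU6wt and 1.20% in mpn1Δ tU6-C36A. All values of tagged strains lay above those of the untagged strains other than cid12Δ, which lay above 1 of them. By N share the tagged strains are also a set of their own, so strain type and set cannot be told apart. The widest interval, in endogenous U6 of tU6-wt, ran from 3.61% to 3.71%. As a share of distinct ends the long tails did not separate these strains, at 36.4% to 54.5% in the files of tagged strains and 25.4% to 59.0% in the untagged libraries.

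**Figure D1:**
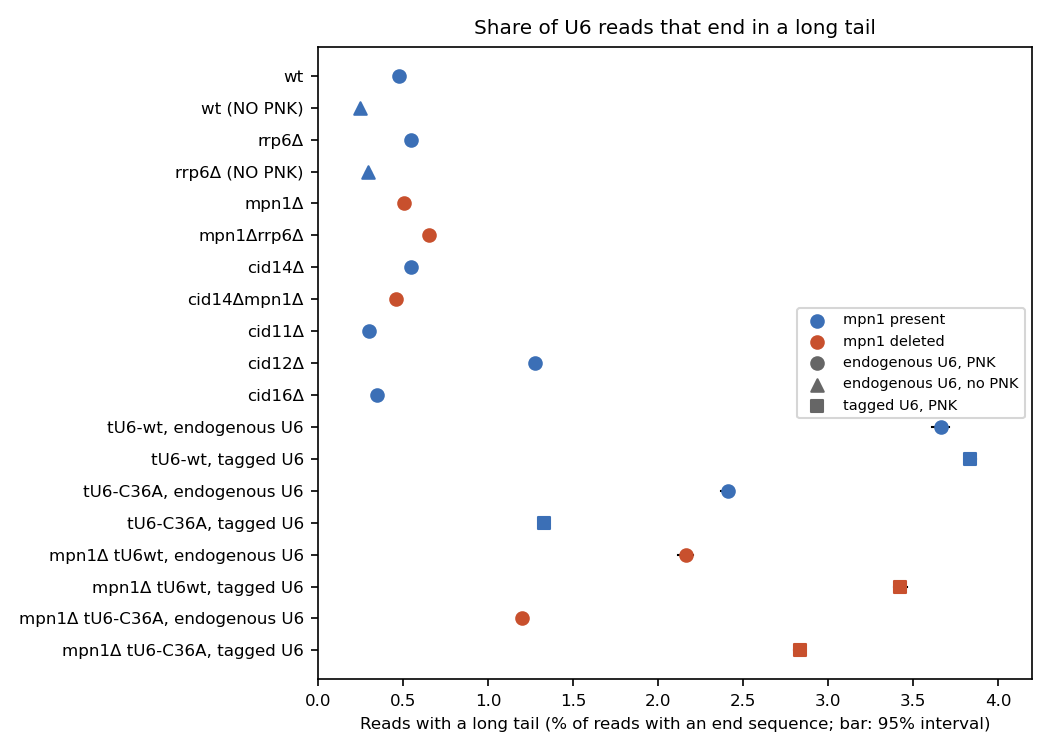
Share of reads with a long tail in each of the 19 files (percent of reads with an end sequence), with exact 95% intervals; colour marks mpn1, shape marks PNK and the form of U6. Untagged strains lie between 0.248% and 0.653% except cid12Δ at 1.28%, and files of tagged strains lie between 1.20% and 3.84%.

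Loss of mpn1 did not separate the libraries by how many long tails they held. The 5 mpn1-deleted libraries with PNK ranged from 0.455% to 2.16% with a median of 0.653%, and the 8 mpn1-present ones from 0.295% to 3.66% with a median of 0.545%. The difference in means was -0.200 points (exact two-sided permutation p = 0.793, adjusted over 4 tests 0.793). The groups overlapped, and without tU6-wt the difference was 0.152 points. A p-value here reflects the variation among strains of differing genotype, since none was read in replicate.

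Without PNK the share was lower in both strains that were read both ways. It was 0.248% (0.239 to 0.256) without and 0.477% with PNK in wt, and 0.294% (0.281 to 0.308) without and 0.544% with PNK in rrp6Δ. The intervals did not overlap in either strain. Adapter-like tails, which were removed, had made up 30.6% of such reads in wt without PNK and 3.38% in wt with it. With them kept the share in wt without PNK was 0.357%, still below that of wt with PNK. Each value is 1 library, so no test was made, and the wt libraries also belong to different sets by their N share.

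Tagged and endogenous U6 of the same strain differed in both directions. Tagged U6 had 3.84% in tU6-wt against 3.66% in endogenous U6, 3.43% against 2.16% in mpn1Δ tU6wt and 2.83% against 1.20% in mpn1Δ tU6-C36A. In tU6-C36A the order was the other way, with 1.33% in tagged and 2.41% in endogenous U6. The mean difference was 0.498 points over the 4 strains (exact sign-flip p = 0.375, adjusted 0.5), where 0.125 is the smallest p that 4 strains allow.

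The tagged strains held few kinds of tails with many reads each. In their 8 files 345 to 947 distinct long-tailed ends held 7148 to 46648 reads, and 6 to 11 ends were enough to hold 50% of them. In the 11 untagged libraries 842 to 24723 distinct ends held 1910 to 50699 reads, and 107 to 2881 ends were needed. The commonest end held 8.40% to 27.8% of long-tailed reads in files of tagged strains and 1.35% to 11.5% in untagged ones. Copies of a single joined molecule cannot be told apart from separate molecules in these reads. Of the 36673 different tails, 82.8% were found in 1 file, 88 in at least 10 files and 1 in all 19. Tails of the tagged U6 of a strain were also found with its endogenous U6 for 20.1% to 39.8% of the tagged tails and 29.3% to 48.8% of the endogenous ones.

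The tail found in every file was the end of 5S rRNA from base 95, printed above, with 2609 reads over 40 ends. Next came the leucine tRNA from its first base, in 18 files, a tail that could not be placed, in 17 files, and the 18 nt from the 3′ end of 5.8S rRNA and the cysteine tRNA with 16 nt, in 16 files each. The other 5 tails of the 10 most widespread, in 15 files each, were 2 leucine tRNAs, the 15-nt form of the cysteine tRNA, 5S rRNA from base 93 and a tail that could not be placed. The commonest end of each file was often another RNA. The 18S tail from base 374, after 5 or 6 Ts, was the commonest in wt with 469 reads (11.5% of long-tailed reads), rrp6Δ with 121 (3.15%), rrp6Δ without PNK with 59 (3.09%), cid14Δ with 136 (5.56%) and cid14Δmpn1Δ with 27 (1.35%). In mpn1Δ and mpn1Δrrp6Δ the 18S tail from base 373, with 1 more A, came first, with 308 reads (5.29%) and 112 reads (2.27%).

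In the remaining libraries other RNAs came first. The cysteine tRNA led in cid11Δ with 209 reads (2.53%) and in cid16Δ with 243 (1.92%), and 5S rRNA from base 93 led in wt without PNK with 58 (1.70%). In tagged U6 the commonest ends were the arginine tRNA in tU6-wt with 8459 reads (18.1%), 28S rRNA in tU6-C36A with 2181 (27.8%), the mitochondrial aspartate tRNA in mpn1Δ tU6wt with 2741 (8.40%) and the alanine tRNA in mpn1Δ tU6-C36A with 4028 (14.1%). In endogenous U6 of mpn1Δ tU6-C36A the leucine tRNA after an A led with 677 reads (9.47%). The commonest end could not be placed in cid12Δ (736 reads, 1.45%) and in endogenous U6 of tU6-wt (2726, 13.2%), tU6-C36A (1884, 13.9%) and mpn1Δ tU6wt (966, 10.9%). The leading RNA thus differed among the 8 files of tagged strains, where it was a different one or an unplaced tail in each file.

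Tail length was much the same everywhere, within a window. The rule's minimum of 15 nt after the T run bounds it below, and the files bound it above. The median over reads was 18 to 24 nt in the 19 files. T run and tail together measured 20 to 38 nt in 95.4% to 99.9% of long-tailed reads. Ends of 19 nt in all numbered 520, between 4281 of 18 nt and 4767 of 20 nt, and 1633 members measured 38 nt, 148 measured 39 nt and 30 were longer. Longer tails are thus not seen here, and at the upper edge of the window tail length is a minimum. Ends of 37 to 38 nt in all made up 1.24% to 16.8% of long-tailed reads per file. At the edge of the rule, tails of 14 nt, which are not members, held 10908 reads and tails of 15 nt 25472. After 5 Ts, a frequent run, a tail of 14 nt measures 19 nt in all, the scarce length.

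Long tails followed a slightly longer run of Us than U6 molecules that ended in Us alone. In wt the mean T run was 5.03 nt before a long tail and 4.53 nt in plain U ends, in mpn1Δ 5.39 and 4.61 nt, and in mpn1Δrrp6Δ 5.20 and 4.41 nt. In cid12Δ, with the most long-tailed ends, it was 5.29 and 5.06 nt. The run before long tails was longer in 15 of 15 libraries and in all 19 files, by 0.0894 nt in tagged U6 of tU6-wt up to 1.02 nt in cid14Δmpn1Δ. Over endogenous U6 of the 15 libraries the difference was 0.483 ± 0.271 nt (SD, n = 15; permutation test over all 32768 sign patterns, two-sided p = 6.10e-05, the smallest they can give, adjusted 0.000244). Ends of 19 nt in all are scarce, and among members that length pairs short T runs with short tails. With tails of at least 20 nt, which cannot fall on that length, the difference was 0.391 nt.

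Runs of 1 to 3 Ts were rarer before long tails in 14 of the 19 files. They made up 4.11% of long-tailed and 25.8% of plain reads in mpn1Δrrp6Δ and 9.50% and 17.5% in wt, but 1.62% and 0.843% in cid11Δ. Among runs of at least 4 Ts the mean difference was 0.223 nt (longer in 15 of 15 libraries) and among runs of at least 5 Ts 0.178 nt (longer in 12 of 15). In endogenous U6 the libraries in which it turned were the untagged strains without mpn1. There, runs of at least 5 Ts averaged 5.64 nt before long tails and 5.71 nt in plain U ends in mpn1Δ. The values were 5.49 and 5.58 nt in mpn1Δrrp6Δ and 5.51 and 5.57 nt in cid14Δmpn1Δ. Tagged U6 also turned in mpn1Δ tU6wt, with 5.71 and 5.72 nt, and in mpn1Δ tU6-C36A, with 5.58 and 5.67 nt. It did not turn in tagged U6 of tU6-wt and tU6-C36A. The median run was the same in 11 libraries and longer before long tails in 4, and the test of medians did not pass (permutation p = 0.125). A tail that itself begins with T adds to the run. Among rRNA and tRNA tails whose reference base before the match is not T the difference was 0.348 nt and had the same sign in 14 of 15 libraries, all but mpn1Δ tU6wt with -0.0566 nt. Against plain and adenylated ends pooled the difference was 0.307 nt, with 0.241 nt in cid14Δmpn1Δ and 0.0420 nt in rrp6Δ without PNK, where it had been 1.02 and 0.836 nt against plain U ends. Apart from the medians, the settings of this paragraph were chosen after the data were seen.

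**Figure D2:**
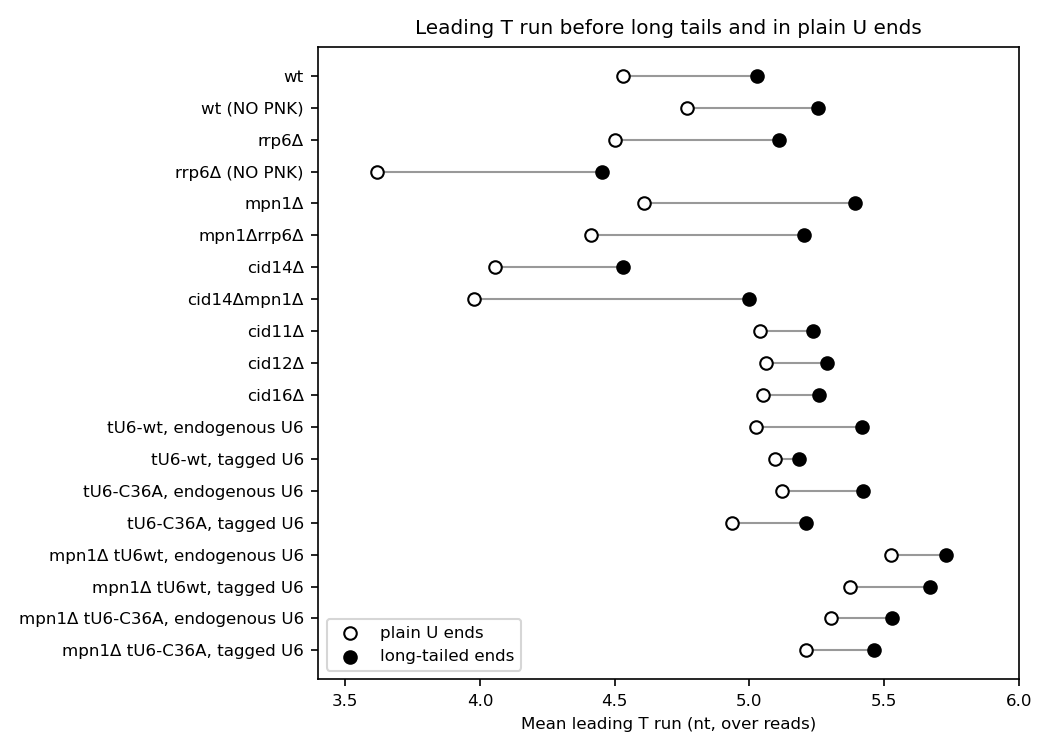
Mean leading T run in nt over reads, in plain U ends (open points) and before long tails (filled points), for the 19 files. The filled point lies to the right in every file, by 0.0894 to 1.02 nt.

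In strains without mpn1 most U6 ends carried As after the Us, and most long tails there began with an A. An A was the first base after the T run in 78.0% of long-tailed reads in mpn1Δ, 81.6% in mpn1Δrrp6Δ, 75.8% in cid14Δmpn1Δ, 69.4% in mpn1Δ tU6wt and 81.8% in mpn1Δ tU6-C36A. With mpn1 it was 24.9% in wt, 28.2% in cid14Δ, 24.9% in cid11Δ, 25.3% in cid12Δ, 25.5% in cid16Δ, 20.6% in tU6-wt, 36.7% in tU6-C36A and 50.9% in rrp6Δ. The groups did not overlap: 77.3 ± 5.11% (SD, n = 5) against 29.6 ± 9.74% (SD, n = 8), a difference of 47.7 points (exact two-sided permutation p = 0.00155, the smallest that 1287 regroupings allow, adjusted 0.00311). Within the 6 untagged PNK-treated libraries with almost no N the difference was 43.8 points, and within the tagged strains 46.9 points, in groups too small to pass 0.05 (exact permutation p = 0.1 and 0.333).

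A part of these As belongs to the tail itself, since RNAs can begin with A. Tails that begin at a tRNA's 5′ end give a fixed point, because that is where RNase P cuts. Of 4776 tRNA tails over all files, 1880 started at the first annotated base and 526 at the base before it. The base before was an A in 505 of the latter. A further 22.8% started at bases 30 to 50, around and after the anticodon. Of the 619 tails that matched to the last annotated base of a tRNA, 499 went on with CCA, the triplet that is added to tRNAs and is not encoded in their genes, and ended there.

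At this fixed point the A was present in most joins without mpn1 and in few with it. Among tails from the first base of a tRNA, histidine tRNA left out because its mature form has 1 more base, an A lay between the T run and the tRNA in 73.3% of reads in mpn1Δ (exact 95% interval 68.2 to 78.0, 326 reads), 79.8% in mpn1Δrrp6Δ, 79.8% in cid14Δmpn1Δ, 68.5% in mpn1Δ tU6wt and 70.8% in mpn1Δ tU6-C36A. It was 2.59% in wt (0.537 to 7.37, 116 reads), 7.87% in cid14Δ, 1.71% in cid11Δ, 1.98% in cid12Δ, 1.50% in cid16Δ, 0.151% in tU6-wt and 0.0779% in tU6-C36A, and 50.2% in rrp6Δ. Again the groups did not overlap, at 74.4 ± 5.17% (SD, n = 5) against 8.26 ± 17.1% (SD, n = 8), a difference of 66.2 points (exact two-sided permutation p = 0.00155). With each distinct end counted a single time it was 60.4 points (exact permutation p = 0.00155). This measure was chosen after the data were seen, and where the gene has an A before its first base, as in the leucine tRNA printed above, an A left on the tRNA cannot be told apart from one on U6.

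The share of tRNA joins with an A lay within 5 points of the share of adenylated ends in 12 of the 19 files, and ranged from 38.1 points below it to 21.8 points above it in the others. Where both shares are low this band is wide: endogenous U6 of tU6-C36A is within it with 0.0779% and 4.81%. Where adenylated ends were frequent, the difference was -3.15 points in mpn1Δ, 4.03 in mpn1Δrrp6Δ and 0.299 in endogenous U6 of mpn1Δ tU6wt. It was 10.9 points in cid14Δmpn1Δ, 11.1 in rrp6Δ and 21.8 in rrp6Δ without PNK. It was 10.7 in tagged U6 of mpn1Δ tU6wt, and 9.13 in endogenous and -38.1 in tagged U6 of mpn1Δ tU6-C36A. Adenylated ends, Us followed by As alone with no tail, made up 76.5% of all reads in mpn1Δ, 75.8% in mpn1Δrrp6Δ, 68.9% in cid14Δmpn1Δ, 39.1% in rrp6Δ and 4.55% in wt. Leaving out PNK went with more of both: 14.6% adenylated ends and 15.4% of tRNA joins with an A in wt, and 55.3% and 77.1% in rrp6Δ. By distinct ends the tRNA joins with an A made up 1.89% to 9.02% in the 9 files of PNK-treated mpn1-present strains other than rrp6Δ, 43.5% in rrp6Δ and 62.1% to 74.5% in the 7 files of mpn1-deleted strains. The largest gap was in tagged U6 of mpn1Δ tU6-C36A, with 57.1% adenylated ends and an A in 62.1% of distinct tRNA ends but in only 1424 of 7489 reads. There the alanine tRNA end of 4028 reads, which has no A, holds most of the 6065 reads without one.

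**Figure D3:**
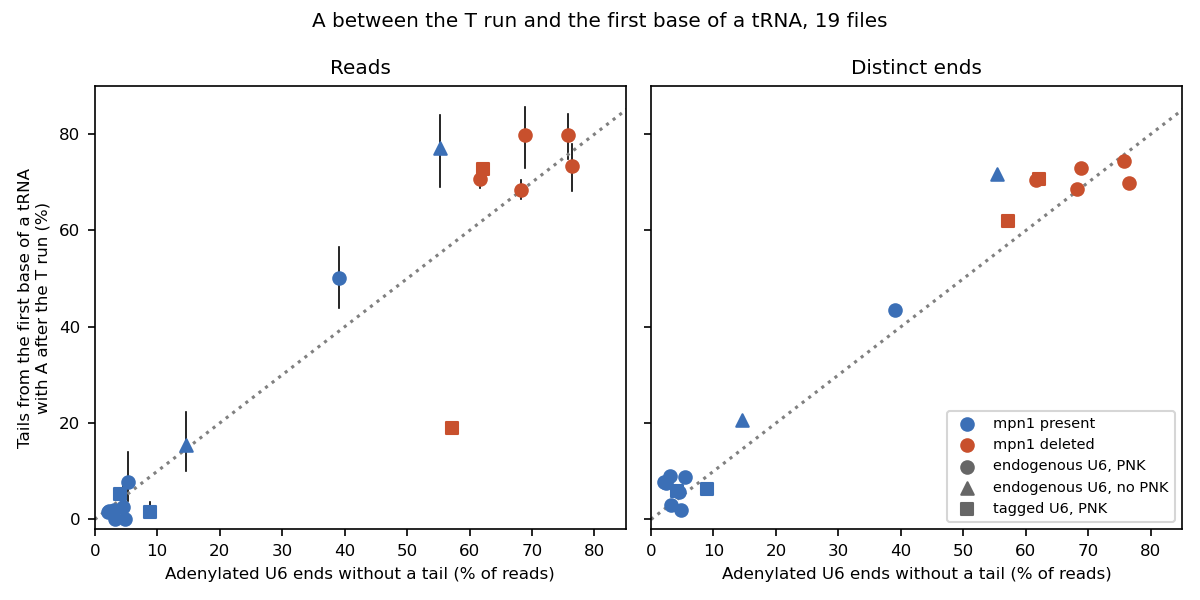
Percent of tails from the first base of a tRNA that have an A after the T run, by reads with exact 95% intervals (left) and by distinct ends (right), against the percent of all reads that are adenylated with no tail, for 19 files. The dotted line marks equal values. Files of mpn1-deleted strains lie at 62.1% to 74.5% of distinct ends and those of mpn1-present strains with PNK other than rrp6Δ at 1.89% to 9.02%.

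An A also stood before tails where the reference has none. Among all rRNA and tRNA tails, 1 to 3 As with no match in the reference stood before the match in 29.1% of reads in mpn1Δ, 35.4% in mpn1Δrrp6Δ, 31.3% in cid14Δmpn1Δ, 8.17% in mpn1Δ tU6wt and 33.4% in mpn1Δ tU6-C36A. With mpn1 the 8 values ran from 0.405% to 2.57% apart from 15.3% in rrp6Δ. The difference was 24.3 points (exact two-sided permutation p = 0.00311, not adjusted), with an overlap between rrp6Δ and mpn1Δ tU6wt. This measure, too, was chosen after the data were seen. The printed 18S tail from base 368 is an example of such an A. At a place where the reference has an A, 18S bases 373 and 374, the libraries did not fall into these groups. Tails from base 373, with the A, made up 60.9% of both in mpn1Δ, 58.3% in mpn1Δrrp6Δ, 50.9% in cid14Δmpn1Δ, 28.6% in rrp6Δ, 6.57% in cid14Δ and 4.67% in wt, but 83.3% in cid11Δ (24 reads), 71.5% in cid12Δ (137) and 76.1% in cid16Δ (46).

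In the 11 untagged libraries ribosomal RNA was the largest source of tails that could be placed. Over all files it held 10.5% to 65.3% of long-tailed reads per file with a median of 37.1%, and tRNA 5.84% to 40.9% with a median of 16.6%. In both forms of U6 in tU6-wt, mpn1Δ tU6wt and mpn1Δ tU6-C36A the order was the other way, with 26.2% to 40.9% on tRNA and 10.5% to 24.2% on rRNA. Both together held 35.3% to 79.5%. Their annotated genes cover 0.302% of the reference, which is no baseline for RNAs that make up most of the RNA of a cell. By distinct ends 28S rRNA led with 9829, followed by 18S with 5052, 5S with 1929 and 5.8S with 1294. Among tRNAs, leucine had 860 ends, glycine 566, glutamine 358 and cysteine 355, and 20 families were met. Bulk libraries of ligated ends do not tell an abundant RNA from one that is ligated easily.

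rRNA tails came from preferred places. Of 1294 tails on 5.8S rRNA, 386 matched to its last base, 165, and 285 started at base 8. Of 1929 tails on 5S rRNA, 69.8% started between bases 86 and 97, and 455 matched to the last base. On 18S rRNA 362 tails, with 18 different starts from base 360 to 378, ended at the same internal base, 392, and 313 of these held nothing after it. They held 5570 reads in 14 files and up to 79.6% of the 18S reads of a file. By distinct ends 28S rRNA tails were spread, the commonest start, base 927, holding 1.35% of 9829. By reads 1 end could still lead a file: in tagged U6 of tU6-C36A the end from base 2325 held 2181 of 2465 28S reads.

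**Figure D4:**
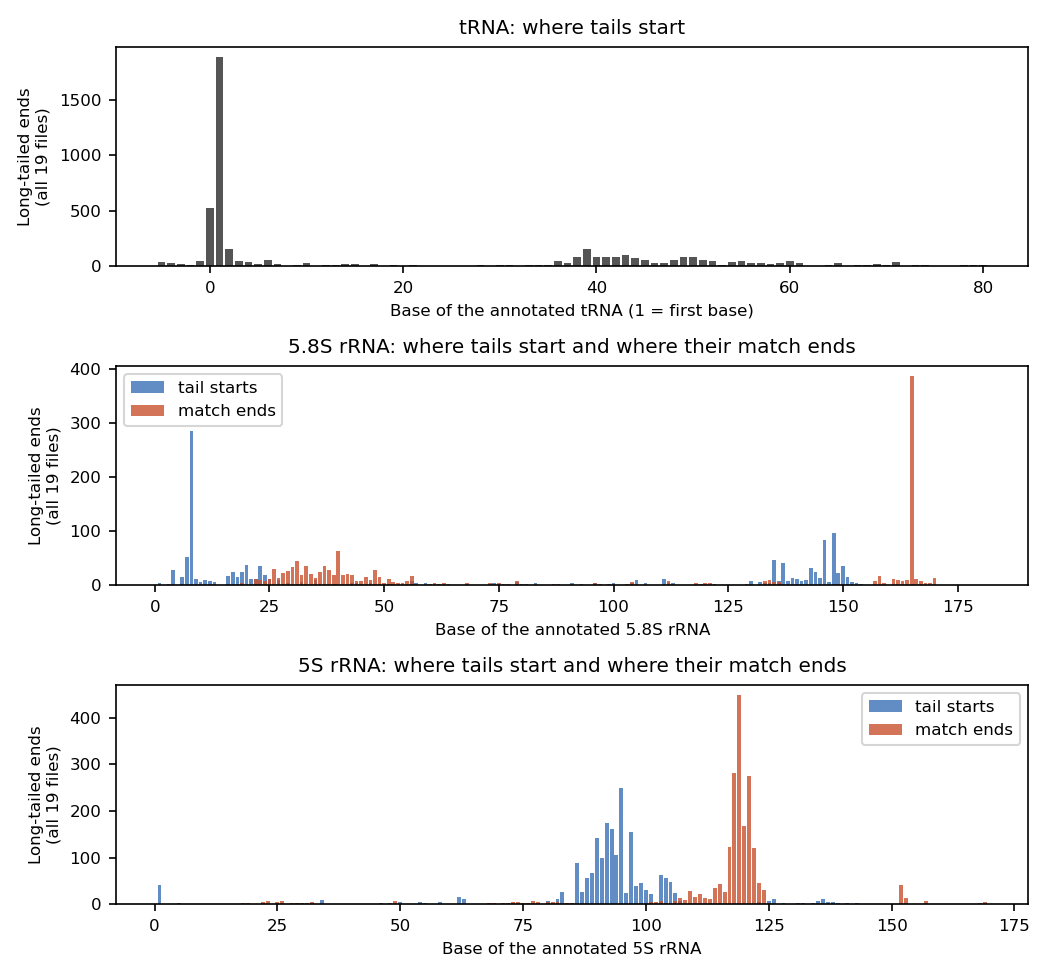
Number of long-tailed ends over the 19 files by the base at which a tail starts in tRNAs (top), and at which tails start (blue) and their match ends (red) in 5.8S rRNA (middle) and 5S rRNA (bottom). tRNA tails gather at the first base, with 1880 of 4776 ends, 5.8S tails start at base 8 or end at base 165, and 5S tails end around base 119.

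The use of these RNAs differed between library sets. 18S rRNA held 43.7% of long-tailed reads in wt, 28.3% in rrp6Δ, 35.8% in rrp6Δ without PNK, 38.3% in mpn1Δ, 23.5% in mpn1Δrrp6Δ, 22.2% in cid14Δ and 14.4% in cid14Δmpn1Δ. It held 4.28% to 7.79% in the 4 untagged libraries with more Ns. 5S rRNA held 19.4% in wt without PNK and 1.52% to 5.85% in the other untagged libraries. Leucine tRNA reached 20.5% and 19.3% in endogenous U6 of mpn1Δ tU6wt and mpn1Δ tU6-C36A, against 0.603% and 6.48% in the matching strains with mpn1. With 1 library a group, set and genotype cannot be told apart here.

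A smaller group of tails matched the centromeric repeats, which are transcribed and cut into small interfering RNAs in fission yeast. These were 559 ends with 2326 reads inside the spans of the annotated centromeric lncRNA genes (1.14% of the reference) and outside stable RNAs, and 506 matched over at least 20 nt. They were gathered more closely in length: 64.9% of them had tails of 20 to 24 nt, against 29.4% of rRNA and 20.6% of tRNA tails. The median tail was 23 nt for centromeric and for rRNA tails alike. The reference base before the match was a T in 63.3% of those that followed the T run directly, against 38.7% for rRNA, so that for most the tail could have begun with that T. Almost all, 555, matched several places equally, so the location printed above is 1 of several and neither strand nor centromere is known. This group was singled out after the values were seen.

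Centromeric tails were met in most libraries and were nearly absent in cid12Δ. In ends per 1000000 reads there were 21.0 (exact 95% Poisson interval 12.4 to 33.1) in wt, 57.3 (45.3 to 71.4) in wt without PNK, 43.9 (29.9 to 62.4) in rrp6Δ, 40.1 (23.8 to 63.4) in cid14Δ, 55.8 (47.4 to 65.3) in cid11Δ and 45.5 (38.9 to 53.0) in cid16Δ. In cid12Δ there were 0.756 (0.156 to 2.21), from 3 ends among 24723 long-tailed ends in the deepest library, where cid11Δ had 156 of 5244 and cid16Δ 166 of 7518. Among untagged strains without mpn1 the values were 4.31 (1.40 to 10.1) in mpn1Δ, 15.9 (8.20 to 27.7) in mpn1Δrrp6Δ and 22.7 (10.9 to 41.8) in cid14Δmpn1Δ. No centromeric end was found in the 4 files of tagged strains without mpn1, where a limit of 3 counts allows up to 2.98 to 7.35 in a file and the exact Poisson intervals reach 3.66 to 9.04. Tagged strains with mpn1 had 26.5 in endogenous and 6.58 in tagged U6 of tU6-wt, and 5.33 (1.10 to 15.6) and 1.69 (0.0428 to 9.41) in tU6-C36A. The intervals of the last 3 overlap those of the files with none. Rates per read count copies of an end as depth, and the files with none held only 345 to 805 distinct long-tailed ends. As a share of long-tailed ends, centromeric ends made up 2.59% in endogenous and 0.845% in tagged U6 of tU6-wt. This share was 0.588% and 0.260% in tU6-C36A, 2.97% in cid11Δ and 0.0121% in cid12Δ. In endogenous U6 of tU6-wt 1 end held 1169 of 1377 centromeric reads. Each value is 1 library, so no test was made, and cid11Δ, cid12Δ and cid16Δ share the same N set.

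**Figure D5:**
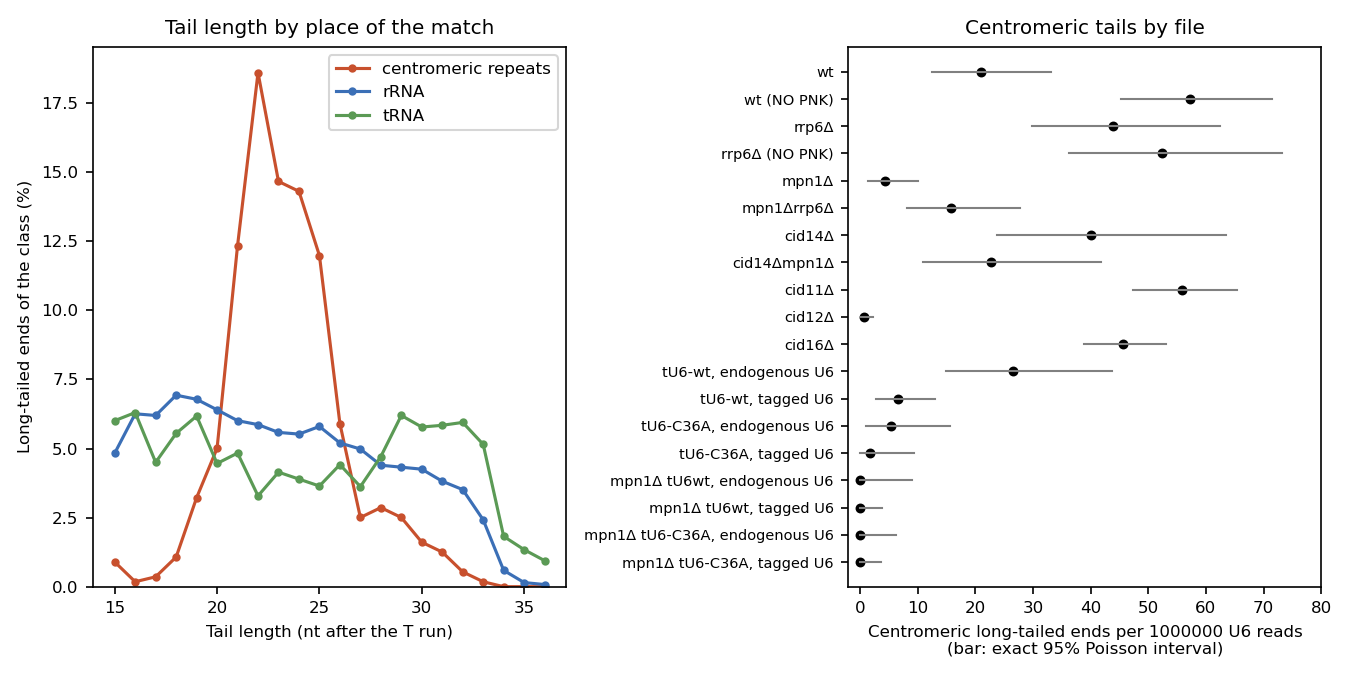
Left, percent of long-tailed ends of each kind by tail length in nt after the T run, all 19 files, for centromeric repeats, rRNA and tRNA. Right, centromeric long-tailed ends per 1000000 U6 reads in each file with exact 95% Poisson intervals. Centromeric tails gather at 20 to 24 nt (64.9%), and cid12Δ has 0.756 where cid11Δ has 55.8 and cid16Δ 45.5.

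Many tails had no place on the fission yeast reference. These made up 5.97% of long-tailed reads in rrp6Δ without PNK to 61.8% in cid12Δ, with a median of 36.3%. They comprised 19800 different tails, of which 2774 were met in more than 1 file and 25 in at least 10. Their origin was not tested and their sequences are not shown. Tails of which at least 80% was A were not placed either and held 0% to 11.3% of long-tailed reads, most in tagged U6 of tU6-C36A.

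Other genes gave few tails. Small nucleolar RNAs had 228 ends, other small nuclear RNAs 105, mitochondrial tRNAs 380 and mitochondrial rRNAs 95, and 5 ends matched U6 itself. Mitochondrial tRNAs reached 14.8% of long-tailed reads in 1 file. Sense matches to protein-coding genes numbered 1159, of which 551 were at least 18 nt long, against 75.4% of rRNA matches at that length. Matches of 15 to 17 nt can occur by chance in a genome of this size, so no protein-coding gene is named.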

How the data were processed

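The deposited files list raw read counts per U6 end, made by the authors, 1 file per library and U6 form. Per the submitters' processing notes, CASAVA 1.8.2 and cutadapt were used, without saying for what. Sources used here do not state the read filters, the genome build or how tagged reads were told from endogenous ones. Which file of a tagged strain holds tagged U6 was taken from its name. Shares are of reads with an end sequence, and the 1 line per file without a sequence was left out. The members, lists and measures were chosen with earlier results of these data known.

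Tails were placed on ASM294v3 by the longest exact match of at least 15 nt that starts within 3 nt of the T run, on both strands, preferring rRNA and tRNA genes among equal locations. Genes were grouped by product, and the 10 products with most ends and the commonest and most widespread ends are described. Of these 10, the product called non-coding RNA names no gene and is not described. Shares have exact (Clopper-Pearson) 95% intervals. Groups of libraries were compared by exact permutation tests and paired values by sign-flip tests, with Benjamini-Hochberg adjustment over 4 tests. Placement and tests were checked on simulated data. The shallowest file allows a share of up to 0.000735% for a count of 0. Alternatives changed tail length, adapter removal, the minimum of reads, weighting by distinct ends, the match and the libraries used. Scripts ran in Python 3.11.15 with SciPy 1.17.1, NumPy 2.4.6, pandas 2.3.3 and, for plots, Matplotlib 3.10.9.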

Additional observations from a re-analysis of the deposited data

Results flagged for a closer look

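Values of 9 measures were compared within 3 sets of libraries, 27 in all, of which chance marks about 1 in 20. Among mpn1-present libraries with PNK, rrp6Δ stood far from the others in As with no match before an rRNA or tRNA tail, at 15.3% of reads against 0.405% to 2.57%. Among mpn1-deleted libraries, endogenous U6 of mpn1Δ tU6wt stood apart in the same measure, at 8.17% against 29.1% to 35.4%. By distinct ends that file had 24.5%.

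Some effects had opposite signs in matching strains. These are differences between single libraries and were not tested. Tagged minus endogenous U6 in the share of long-tailed reads was 0.175 points in tU6-wt and -1.08 points in tU6-C36A. In the share of long-tailed reads with A first it was 11.4 points in tU6-wt and -13.9 points in tU6-C36A. Without mpn1 it was 14.5 points in mpn1Δ tU6wt and -11.8 points in mpn1Δ tU6-C36A. Leaving out PNK changed the excess T run before long tails by -0.0159 nt in wt and by 0.227 nt in rrp6Δ.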

How the results depend on the processing

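The A after the T run kept its direction under every alternative tried. With 1 library left out the difference ranged from 46.4 to 50.7 points. It no longer passed in subsets too small to do so: 43.8 points in the 6 untagged libraries with almost no N, 46.9 in tagged strains and 45.1 over 5 background pairs. The longer T run before long tails ranged from 0.445 to 0.504 nt with 1 library left out. It was 0.391 nt with tails from 20 nt. With medians, which are whole numbers, it was 0.267 nt and did not pass. Counting each distinct end a single time on both sides reversed it, to -1.87 nt. Plain U ends have only 1 distinct end per length, so that setting gives every length equal weight. With only long-tailed ends counted so it was 0.474 nt, and against plain and adenylated ends together 0.307 nt. The difference in long-tail share by mpn1 never passed. It ranged from -0.492 to 0.152 points with 1 library left out and was 0.0145 points in the 6 untagged libraries with almost no N, -1.35 in tagged strains and -0.533 over the 5 background pairs. The tagged minus endogenous difference ranged from 0.119 to 1.02 points with 1 strain left out and turned to -6.32 points as a share of distinct ends.

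The median share of long-tailed reads, 0.653%, was 0.735% with tails from 12 nt, 0.384% with tails from 20 nt, 0.681% without adapter removal, 0.497% among ends with at least 2 reads and 46.6% of distinct ends. The difference without PNK was -11.7 points in wt and -14.8 in rrp6Δ by distinct ends, -0.104 and -0.133 with tails from 20 nt, and -0.179 in wt without the commonest end. The median share on rRNA and tRNA, 57.2%, was 42.1% with matches of at least 18 nt, 64.1% with 1 mismatch and 47.5% of distinct ends. No fit with a replicate block could be made, since each group is 1 library, so pairs of strains and of U6 forms were used instead. Depth limits the tRNA joins and centromeric tails, and the upper edge of the window, near 38 nt, limits tail length.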
